A study of Mus musculus with 16 samples.

Results

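The 6 epidermal growth factor (EGF) family ligand genes Egf, Tgfa, Areg, Ereg, Btc and Hbegf and the 3 ErbB receptor genes Egfr, Erbb2 and Erbb3 were followed in the mouse small intestine. The 9 genes were taken by symbol from the 45513 genes counted, and all 9 were among the 15323 that passed the filter on low counts. The samples came from adult Atoh1(WT)CreERT2 R26RtdTom mice that had received tamoxifen, 1 mg per day for 3 days according to the sample labels. Live cells carrying the epithelial surface protein EpCAM were sorted from each of 8 mice into a tdTom+ and a tdTom- fraction, which gave 16 libraries of whole-fraction RNA. CreERT2 sits at the Atoh1 locus, so the red reporter marks cells that expressed this secretory fate factor and cells descended from them, and both fractions carry the same alleles and treatment.

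EGF family ligands are made as membrane-anchored precursors that ADAM proteases cut free, and they act on the cell that made them or on its neighbours. EGF, TGFα and amphiregulin bind EGFR, whereas betacellulin, HB-EGF and epiregulin can also bind ErbB4. ErbB2 has no known ligand and works as a partner of the other receptors, and ErbB3 binds neuregulins but signals mainly through its partner. In the small intestine, Paneth cells are a known source of EGF for the neighbouring stem cells, and EGF is a standard supplement of intestinal organoid cultures.

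The defining markers followed the labels. Atoh1 was at 62.5 ± 12.7 CPM (counts scaled to 1000000 per library, mean ± SD, n = 8) in tdTom+ and 0.717 ± 0.247 in tdTom-. All 8 goblet and all 8 Paneth markers were higher in tdTom+, and their tdTom- means were 0.48% to 1.4% of their tdTom+ means. All 8 absorptive markers were lower in tdTom+, where their means were 8.31% to 19.3% of the tdTom- means. Enteroendocrine (8 of 8) and tuft (7 of 7 tested) markers were higher in tdTom+, 4 of 8 stem markers were higher, and none of 8 proliferation markers passed the test by edgeR. Immune markers were lower in tdTom+ for 6 of 8 genes, with summed levels of 5.84 to 27.9 CPM in tdTom+ against 10.1 to 141 CPM in tdTom-, and their part in the results was not tested. Summed stromal markers were at 18.6 to 45.8 CPM in tdTom+ and 4.11 to 8.39 CPM in tdTom-, through Vim (23.4 against 2.29 CPM, log2 3.38, higher in 8 of 8 mice), while Pecam1 and Acta2 did not pass the test and the other 5 were too low to test, with Col3a1 and Dcn at 0 counts in every tdTom+ library. Of 4 Brunner gland and antral mucous markers, whose summed levels overlapped (5.20 to 16.7 CPM in tdTom+, 2.42 to 8.27 in tdTom-), Gkn3 was higher in tdTom+ (log2 0.62, adjusted p = 0.00982, edgeR), and Muc6 and Tff2, too low to test, had 3 to 6 and 1 to 8 counts in tdTom+ libraries and at most 1 and 0 in tdTom-. Mouse 7 stood apart in its tdTom- library, with the lowest summed absorptive, enteroendocrine and tuft markers and the highest summed stem and proliferation markers of its fraction.

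Every one of the 9 genes differed between the fractions at an adjusted p under 0.01 (edgeR quasi-likelihood test paired by mouse, Benjamini-Hochberg over all 15323 genes). Of these, 5 were higher in tdTom+ (Egf, Btc, Egfr, Tgfa and Areg) and 4 were lower (Ereg, Hbegf, Erbb2 and Erbb3). These counts stand against a high background, since 55.8% of all genes tested were called, 25.8% as higher and 30.0% as lower. The median log2 fold change of the 9 genes was 0.37, which is the value of Areg, beside 0.02 for all genes tested. Taken apart, the ligands had a median of 0.54 and the receptors one of -0.76. Egf passed the filter through its tdTom+ libraries and Ereg through its tdTom- libraries, so these 2 had to differ, and under a filter of 10 counts in every library the remaining 7 genes gave 4 higher and 3 lower. The libraries of the fractions did not overlap in CPM for 8 of the 9 genes, beside 31.6% of all genes tested. In whole-fraction RNA, fewer cells of a type and less RNA per cell cannot be told apart.

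**Figure D1:**
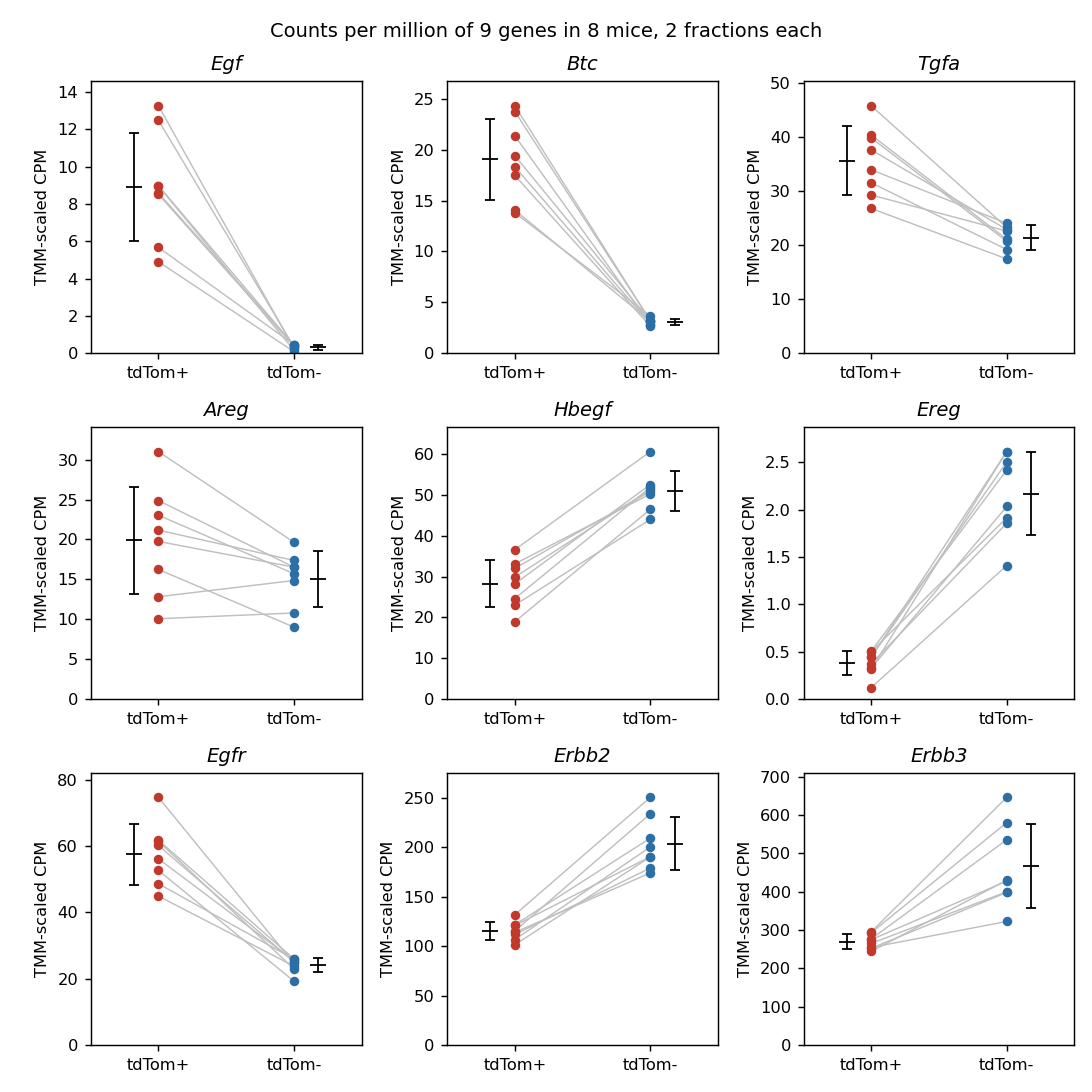
TMM-scaled CPM (vertical axes, each from 0) of the 9 genes in the tdTom+ (red) and tdTom- (blue) library of each of 8 mice, with grey lines joining the libraries of a mouse and black bars giving mean ± SD. The fractions do not overlap for 8 of the 9 genes, beside 31.6% of all genes tested, and for Areg they do, with mice 2 and 6 running against the other 6.

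Of the ligands, Egf differed most. It was at 4.91 CPM in the lowest, 8.78 in the median and 13.3 in the highest tdTom+ library, from 102 to 276 counts. In tdTom- it was at 0.0912, 0.369 and 0.469 CPM, from 2 to 9 counts. The fractions did not overlap, and mice 4 and 7 had the highest tdTom+ levels and mice 1 and 5 the lowest. The fold change was 27.2 (log2 4.76 ± 0.19 SE, adjusted p = 8.8e-11, edgeR), higher in 8 of 8 mice. Egf passed the filter on low counts through its tdTom+ libraries. The p-value and the count of mice are thus no separate support for a difference. The tdTom- level of Egf was 3.66% of its tdTom+ level, above the 0.48% to 1.4% of the goblet and Paneth markers. It was below the 6.38% to 46.9% of the enteroendocrine markers. It was also below the 17.8% to 63.0% of the tuft markers, which include Il25, a gene too low to test. The part of Brunner gland RNA, whose markers Muc6 and Tff2 were also found mainly in tdTom+, was not tested.

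Btc, which encodes betacellulin, was at 13.8, 18.9 and 24.3 CPM (lowest, median, highest) in tdTom+. Its tdTom- levels were 2.66, 3.15 and 3.68 CPM. No tdTom- library reached any tdTom+ library, and the levels within tdTom- spanned only 1.38-fold. The fold change was 6.06 (log2 2.60 ± 0.12, adjusted p = 2.6e-10, edgeR), with single mice between 1.88 and 2.89 on the log2 scale.

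Tgfa, which encodes TGFα, differed less. Its levels were 26.8, 35.8 and 45.8 CPM in tdTom+ and 17.5, 21.8 and 24.0 CPM in tdTom-. The fractions still did not overlap, and mouse 7 had the lowest level in both. The fold change was 1.65 (log2 0.72 ± 0.07, adjusted p = 1.2e-06, edgeR), higher in 8 of 8 mice.

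Areg, which encodes amphiregulin, was the only ligand whose fractions overlapped. It was at 10.1, 20.5 and 31.0 CPM in tdTom+ and at 9.02, 16.1 and 19.7 CPM in tdTom-. In 6 of 8 mice the tdTom+ library held more, and mice 2 and 6 went the other way, while mouse 5 had the highest level in both fractions. The log2 fold change was 0.37 ± 0.11 with an adjusted p of 0.00909 (edgeR), close to the threshold. The call was lost without the pairing by mouse (log2 0.40, adjusted p = 0.0994), with libraries scaled to their total counts (log2 0.30, adjusted p = 0.0327), and without mouse 1, 4, 5, 7 or 8 (adjusted p = 0.0281, 0.017, 0.0287, 0.0174 and 0.0146, edgeR throughout).

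Hbegf and Ereg ran the other way. Hbegf, which encodes HB-EGF, was at 18.9 CPM in the lowest, 29.0 in the median and 36.6 in the highest tdTom+ library, against 44.0, 51.1 and 60.6 CPM in tdTom-. All tdTom- libraries lay above all tdTom+ libraries. The tdTom- level was 1.83-fold that of tdTom+ (log2 -0.87 ± 0.07, adjusted p = 1.8e-07, edgeR), and the gene was lower in tdTom+ in 8 of 8 mice.

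Ereg, which encodes epiregulin, was sparse in both fractions. It had 2 to 12 counts in tdTom+ (0.122, 0.409 and 0.508 CPM) and 26 to 54 counts in tdTom- (1.41, 2.23 and 2.61 CPM). The fractions did not overlap, and mouse 2 was lowest in both. The tdTom- level was 5.62-fold that of tdTom+ (log2 -2.49 ± 0.17, adjusted p = 1.8e-08, edgeR). Ereg passed the filter on low counts through its tdTom- libraries, so the p-value is no separate support for a difference. Its tdTom+ level was 17.5% of its tdTom- level, inside the 8.31% to 19.3% of the absorptive markers, while Hbegf was at 55.5%. The part of absorptive or immune RNA in these levels was not tested.

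Ereg, Areg and Btc lie near each other on chromosome 5 (GRCm38), at chr5:91074617-91093649 and chr5:91139615-91148432 on the plus strand and chr5:91357261-91402994 on the minus strand. In spite of this their log2 fold changes were -2.49, 0.37 and 2.60. Epgn, the gene of the ligand epigen, lies at chr5:91027464-91035215 and had at most 4 counts in any library. Elsewhere, Egf lies at chr3:129677565-129755316, Tgfa at chr6:86195251-86275639, Egfr at chr11:16752203-16918158, Erbb2 at chr11:98412470-98437716 and Erbb3 at chr10:128567523-128589652. All counts are of reads in exons.

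The 250 bases before the annotated start were searched for 4 motifs in RefSeq promoter entries of 6 members (Egf, Tgfa, Areg, Btc, Egfr and Erbb2). Ereg, Hbegf and Erbb3 were not part of this search. The motifs were the E-box CAGCTG, a form bound by ATOH1 and related factors, the cAMP response element TGACGTCA, the AP-1 site TGACTCA and the TATA box TATAAA, each on both strands. Btc and Areg are shown because they held matches, and Egf, with its first annotated start, because it was higher in tdTom+ along with Btc and held none. They are given 5′ to 3′ along the gene, with matches in capitals, from GRCm38.p6 at chr5:91402995-91403244 (minus strand), chr5:91139349-91139598 (plus strand) and chr3:129755323-129755572 (minus strand).
Btc: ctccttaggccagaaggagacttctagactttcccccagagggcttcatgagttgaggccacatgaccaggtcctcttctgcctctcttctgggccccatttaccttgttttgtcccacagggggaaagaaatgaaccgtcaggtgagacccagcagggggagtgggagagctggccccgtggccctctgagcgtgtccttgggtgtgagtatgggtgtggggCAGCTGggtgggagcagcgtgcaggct
Areg: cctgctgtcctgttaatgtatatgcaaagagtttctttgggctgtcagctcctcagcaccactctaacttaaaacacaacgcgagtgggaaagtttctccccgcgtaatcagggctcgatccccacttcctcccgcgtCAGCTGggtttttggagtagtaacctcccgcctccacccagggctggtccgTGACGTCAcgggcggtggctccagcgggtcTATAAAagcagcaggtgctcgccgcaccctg
Egf: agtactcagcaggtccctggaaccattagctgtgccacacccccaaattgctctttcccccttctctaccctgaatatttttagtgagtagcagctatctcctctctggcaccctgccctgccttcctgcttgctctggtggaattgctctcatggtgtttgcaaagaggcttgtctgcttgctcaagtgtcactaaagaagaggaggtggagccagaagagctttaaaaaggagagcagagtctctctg
In Btc the capitals mark an E-box that begins 27 bases before the start. In Areg they mark, in order, an E-box at 112, the cAMP response element at 61 and the TATA box at 31 bases before the start. Among 32536 distinct promoters of the same length, the E-box was found in 13.1%, the cAMP response element in 1.56%, the AP-1 site in 4.45% and the TATA box in 12.3%. These letters were in none of the other windows searched.

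The receptors split between the fractions. Egfr was at 44.9, 58.2 and 74.8 CPM (lowest, median, highest) in tdTom+ and at 19.2, 24.8 and 26.0 CPM in tdTom-. The fractions did not overlap, with mouse 3 highest in tdTom+ and mouse 5 lowest in tdTom-. The fold change was 2.37 (log2 1.24 ± 0.08, adjusted p = 8.3e-09, edgeR), and single mice lay between 0.91 and 1.60 on the log2 scale.

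Erbb2 was at 101, 115 and 132 CPM in tdTom+ and at 174, 195 and 251 CPM in tdTom-. All 8 mice had the lower level in tdTom+, without overlap between the fractions. The tdTom- level was 1.76-fold that of tdTom+ (log2 -0.81 ± 0.06, adjusted p = 3.6e-08, edgeR).

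Erbb3 was at 244, 270 and 295 CPM in tdTom+ and at 322, 429 and 646 CPM in tdTom-. Its tdTom+ libraries were the most alike of any member, with a coefficient of variation of 6.98%, whereas its tdTom- libraries varied by 23.3% and ran from mouse 8, the lowest, to mouse 6, the highest. The tdTom- level was 1.70-fold that of tdTom+ (log2 -0.76 ± 0.08, adjusted p = 2.0e-06, edgeR), lower in tdTom+ in 8 of 8 mice. Without mouse 7 the log2 fold changes of Egfr, Erbb2 and Erbb3 were 1.30, -0.80 and -0.79.

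**Figure D2:**
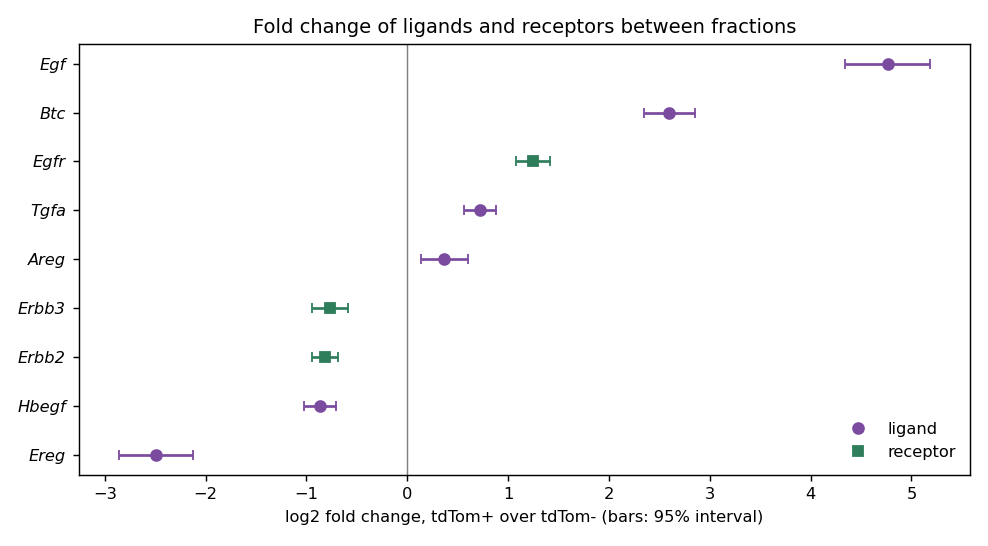
Log2 fold change of each gene in tdTom+ over tdTom- (horizontal axis) with its 95% interval, for ligands (circles) and receptors (squares), from the edgeR fit paired by mouse. Egf lies farthest to the right at 4.76 and Ereg farthest to the left at -2.49, and Egfr lies on the opposite side of 0 from Erbb2 and Erbb3.

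Which ligand and which receptor was most abundant was read per length, as CPM divided by the exon length in kilobases (RPKM). In tdTom+ the order of mean level was Erbb3 (44.8 RPKM), Erbb2 (22.1), Areg (16.6), Hbegf (11.9), Btc (6.62), Egfr (5.09), Tgfa (4.13), Egf (0.791) and Ereg (0.0918). All 8 neighbouring pairs in that order differed over the 8 mice (exact two-sided sign-flip test, Benjamini-Hochberg over 8 pairs), with an adjusted p of 0.0312 for Erbb2 against Areg and 0.00893 for the others, which had the smallest exact p that 8 mice can give, 0.00781. Erbb2 lay above Areg in 6 of 8 mice only. Here and in tdTom-, the order and its neighbouring pairs were taken from the same values that were tested. The p-values are thus no separate support for the order.

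In tdTom- the order was Erbb3 (77.7 RPKM), Erbb2 (39.1), Hbegf (21.5), Areg (12.6), Tgfa (2.48), Egfr (2.13), Btc (1.07), Ereg (0.524) and Egf (0.0289). Tgfa and Egfr, neighbours in this order, did not pass the threshold of 0.05 (log2 difference 0.22 ± 0.28 SD, exact sign-flip test, adjusted p = 0.0625), and the other 7 pairs did. Egf thus lay above Ereg in tdTom+ and last in tdTom-, and Btc moved from above Egfr in tdTom+ to below it in tdTom-. The order depends on the length used: the exon length in the files was 11275 bases for Egf and 8624 for Tgfa, against 4761 and 4527 for their longest annotated coding transcript, and with the latter Tgfa moved above Btc and Egfr in tdTom+ and Tgfa and Egfr differed in tdTom-.

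**Figure D3:**
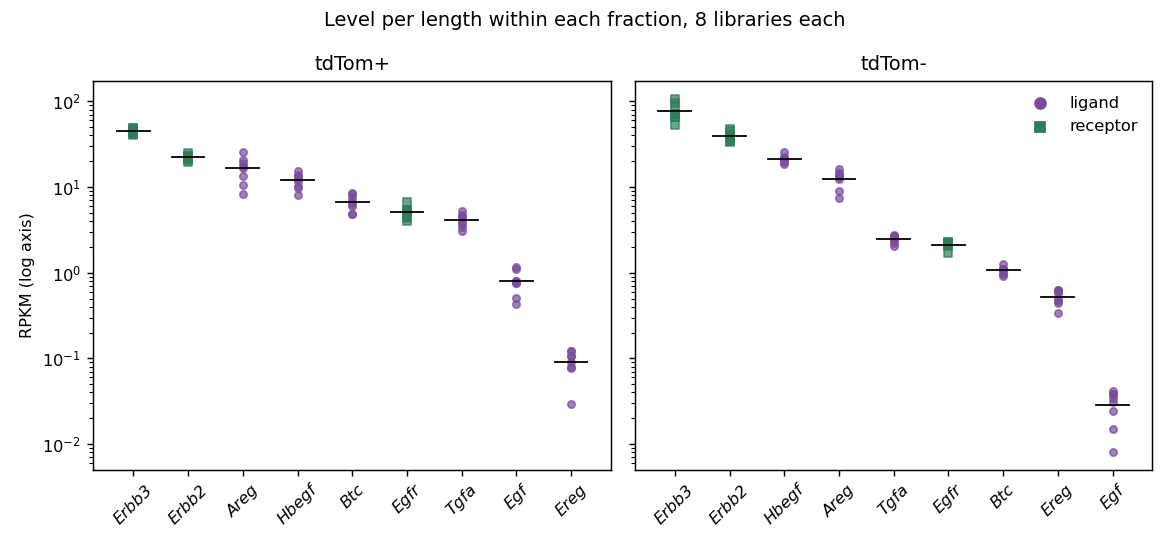
RPKM on a log axis for the 9 genes, ordered by level within tdTom+ (left) and tdTom- (right), with 1 point per library, 8 libraries per fraction, and a black line at the mean. Erbb3 and Erbb2 lead both orders, Areg lies above Hbegf in tdTom+ and below it in tdTom-, and Egf lies above Ereg in tdTom+ only.

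As sums of RPKM over the 6 ligands, the fractions overlapped, at 40.1 ± 8.04 (SD, n = 8) in tdTom+ and 38.1 ± 4.38 in tdTom-. The make-up of that sum differed. Hbegf made up 29.8% ± 2.83 of it in tdTom+ and 56.5% ± 3.40 in tdTom-, with no overlap between libraries. Btc made up 16.9% ± 3.49 against 2.86% ± 0.496, and Egf 2.04% ± 0.706 against 0.0791% ± 0.0391, again without overlap. Areg made up 40.3% ± 6.58 against 32.5% ± 4.59 and Tgfa 10.7% ± 3.04 against 6.62% ± 1.29, and for both the fractions overlapped. These shares do not depend on how libraries were scaled, but they do depend on the gene lengths.

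The sum over the 3 receptors was 72.0 ± 4.55 RPKM in tdTom+ and 119 ± 22.7 in tdTom-, without overlap. Within a library, Erbb2 was 4.44 ± 0.716 times Egfr in tdTom+ and 18.7 ± 4.42 times Egfr in tdTom-, and the ranges of 3.54 to 5.58 and 14.6 to 28.3 did not meet. The ratio of Erbb3 to Erbb2 was 2.03 ± 0.134 in tdTom+ and 1.97 ± 0.243 in tdTom-, with overlapping ranges. The receptors that fell in tdTom+ thus kept a like ratio to each other while Egfr rose against both.

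**Figure D4:**
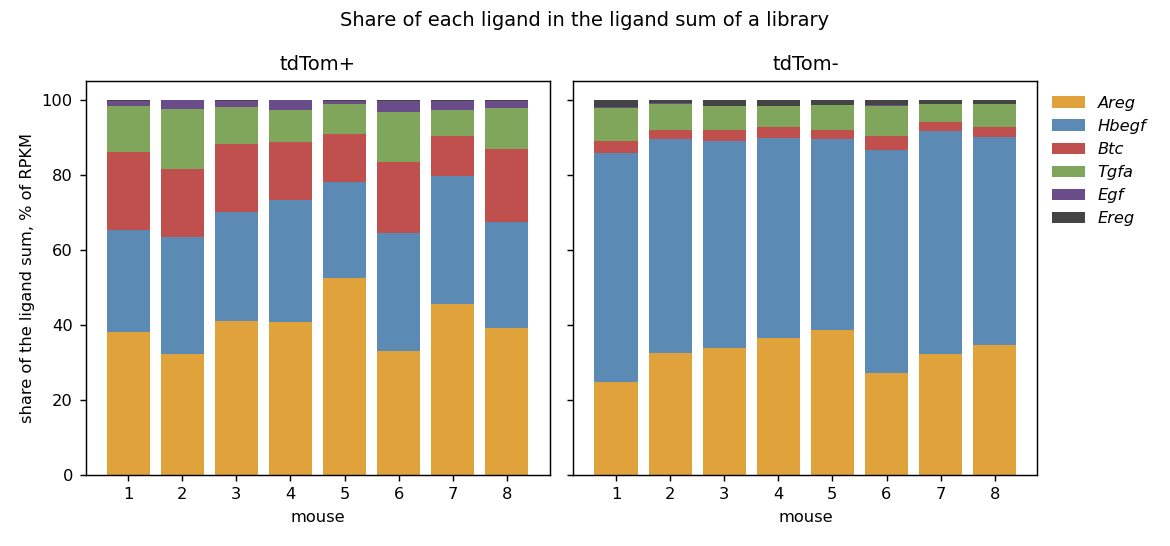
Share of each ligand in the summed ligand RPKM of a library (vertical axis, %) for the 8 mice (horizontal axis), in tdTom+ (left) and tdTom- (right). Hbegf takes 51.0% to 61.1% of the sum in every tdTom- library and 25.5% to 33.9% in every tdTom+ library, and Btc takes 10.8% to 20.8% in tdTom+.

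To describe which members varied together between mice, the log2 CPM of each gene was centred on its fraction mean and compared over the 16 libraries, which share mice, so that the values are descriptions only. Among the members, Erbb2 and Erbb3 were most alike (Pearson r = 0.85), followed by Areg and Hbegf (0.81) and by Btc and Egfr (0.76). Among genes of at least 10 CPM, the closest to Hbegf were Atf3 (0.92), Jun (0.89) and Klf6 (0.89), immediate early transcription factor genes. The closest to Areg were Atf4 (0.93), a stress response transcription factor gene, Plk3 (0.85) and Zfand5 (0.84). The closest to the remaining members were Dock9 for Egf (0.84), Abhd17c for Tgfa (0.93), Ciao1 for Ereg (0.76), Nedd9 for Btc (0.81), Zfp664 for Egfr (0.87), Cept1 for Erbb2 (0.90) and Rbl2 for Erbb3 (0.91). For Egf, Gon4l and Rfx3 were at 0.84 too. All these genes were picked as the highest of 9412 or 9413 compared, and the level that chance would give was not computed.

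Immediate early and heat shock genes can also respond to tissue handling. Of 8 genes listed for this, Fosb, Atf3 and Nr4a1 were higher in tdTom+ (log2 1.31, 0.98 and 1.92), Zfp36 was lower (-0.49), and Jun, Junb, Hspa1a and Hspa1b did not pass the test. Among all genes tested, 55.8% were called in either direction. The part of handling in the levels of Areg and Hbegf was not tested.

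Of the 6 other family genes, only Nrg4 was tested. Nrg4, a neuregulin that binds ErbB4, had 0.901, 1.86 and 2.58 CPM in tdTom+ and 2.14, 4.63 and 6.83 CPM in tdTom- (log2 -1.39 ± 0.14, adjusted p = 8.1e-07, edgeR). It was lower in tdTom+ in 8 of 8 mice, although the ranges overlapped. Nrg1, Nrg2 and Nrg3 had at most 4, 6 and 1 counts in a library. Erbb4 had 0 counts in all 16 libraries. For scale, 3 counts, taken as a floor for counting error only, would be 0.123 to 0.191 CPM in a library.

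Of 10 genes of ligand shedding and trafficking, 4 were higher in tdTom+, 3 were lower, 2 did not pass the test and Nkd2 was too low to test. These counts stand beside 25.8% higher and 30.0% lower among all genes tested. Rhbdf1 and Rhbdf2 encode the iRhom proteins that carry the shedding protease ADAM17 to the cell surface, and they ran in opposite directions. Rhbdf1 was at 18.2 ± 2.42 CPM in tdTom+ and 8.51 ± 2.11 in tdTom- (log2 1.11 ± 0.12, adjusted p = 2.3e-06). Rhbdf2 was at 18.9 ± 2.53 CPM against 30.9 ± 3.17 (log2 -0.71 ± 0.06, adjusted p = 3.2e-07, edgeR). Frmd8, whose protein stabilises the iRhom and ADAM17 complex, was lower in tdTom+ (log2 -1.56), as was Adam17 itself by a small margin (-0.18), while Adam9, Adam15 and Adam10 were higher (0.76, 0.24 and 0.23).

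Of 15 genes of receptor and pathway inhibitors, 7 were higher in tdTom+, 3 were lower and 5 did not pass the test. The share called among all genes tested was 55.8%, with 25.8% higher and 30.0% lower. Spry1, which encodes a feedback inhibitor of receptor tyrosine kinase signalling, was at 25.7, 38.1 and 60.4 CPM in tdTom+ and 2.19, 4.55 and 11.3 CPM in tdTom- (log2 2.90 ± 0.29, adjusted p = 1.0e-06, edgeR). The fractions did not overlap. Spred1, Ptprj and Errfi1 were also higher (log2 1.20, 0.83 and 0.59). Lrig3, Cbl and Cblc were lower (-0.86, -0.72 and -0.37), and Cbl and Cblc encode ubiquitin ligases of the family that takes EGFR to degradation. The other genes of these families did not follow as a group. Lrig1 was called higher (log2 0.56), and Lrig2 and Cblb were not called (-0.24 and 0.24).

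The 12 genes listed as responding to ERK, the kinase at the end of the cascade below the receptors, gave 8 higher, 2 lower and 2 not called. Of all genes tested, 25.8% were called higher and 30.0% lower. The median log2 fold change of the 12 genes was 0.40, beside 0.02 for all genes. Phlda1 was at 64.8 ± 9.56 CPM in tdTom+ and 13.5 ± 2.16 in tdTom- (log2 2.26 ± 0.09, adjusted p = 9.8e-11, edgeR). Etv5, Etv4 and Egr1 were higher as well (log2 1.88, 1.17 and 0.89), and Ier3 and Dusp5 were lower (-0.86 and -0.73). Phlda1 is also known as a gene of intestinal stem cells, and 4 of 8 stem markers were higher in tdTom+, Lgr5 by 0.89 on the log2 scale, whose part in these values was not tested. Egr1 and Fos, 2 of the 8 higher genes, are immediate early genes like Fosb, Atf3 and Nr4a1, which were higher in tdTom+ too, and the part of handling in the values of this list was not tested either.

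Of the 23 adaptor and kinase genes, 5 were higher, 7 were lower and 11 were not called, beside the 55.8% called among all genes, with a median log2 fold change of -0.09. Braf, Akt1, Hras and Nras were higher by 0.51, 0.47, 0.31 and 0.24 on the log2 scale. Map2k2, Gab1, Plcg1 and Sos2 were lower, at -0.84, -0.73, -0.46 and -0.39. None of the 23 reached a log2 fold change of 1 in either direction.

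**Figure D5:**
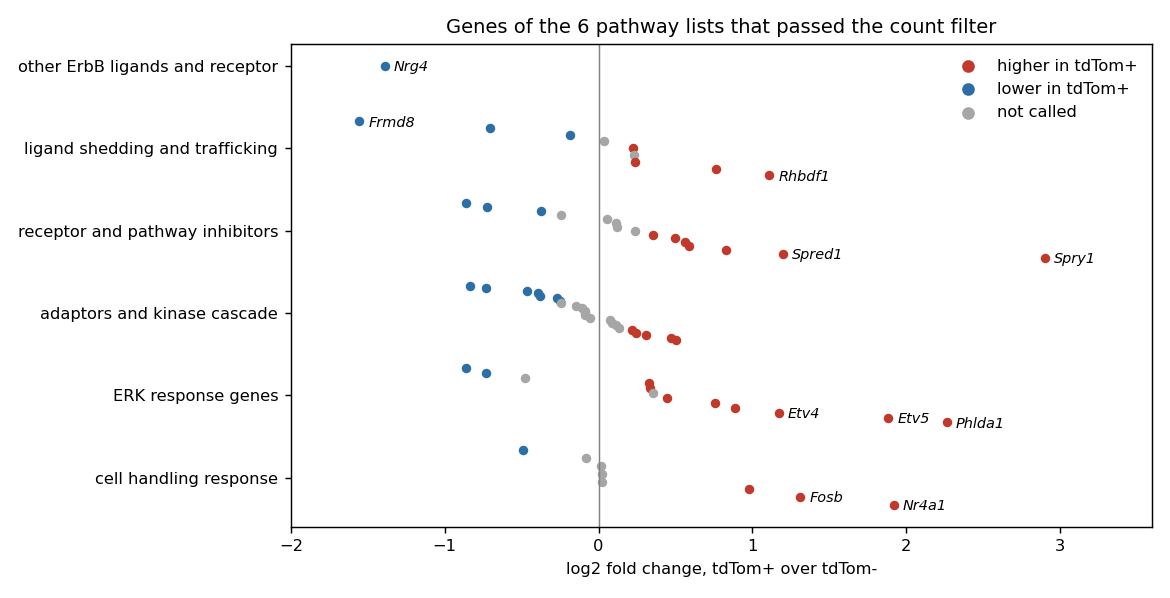
Log2 fold change in tdTom+ over tdTom- (horizontal axis) of the genes in 6 pathway lists that passed the count filter, 1 point per gene, red for higher, blue for lower and grey for not called at an adjusted p under 0.01. Genes at 1 or more in size are named, with Spry1 at 2.90 and Frmd8 at -1.56 at the ends.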

How the data were processed

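RNA of sorted small intestinal fractions was made into stranded libraries by the authors and sequenced. Per the file headers, reads were counted in exons by gene with featureCounts 1.5.0-p1 on the reverse strand. The submitters' processing notes name TopHat2 2.1.1, Subread 1.5.2, DESeq2 1.14.1 and GRCm38.p3. The deposited values are raw counts per gene, 17116405 to 25323567 per library, with 22.9% to 31.2% in the 10 most counted genes in tdTom+ and 9.23% to 24.1% in tdTom-. Symbols matched 44585 of 45513 identifiers.

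From these counts, CPM and RPKM (exon length of the files) were computed with TMM scaling. Fractions were compared with edgeR 4.0.16 (quasi-likelihood, default filter on low counts, mouse as block, adjusted p under 0.01), which was tested on simulated data. Fractions of a mouse share an animal number in the labels, and same-numbered libraries deviated together (r = 0.245 to 0.634 in 8 mice). Alternatives used DESeq2 1.42.0, limma 3.58.1, other scalings and filters, no block, and each mouse left out. Levels of members were compared by exact sign-flip tests with 2 counts added. Named pathway genes are up to 4 per list and direction with the largest called changes, plus the Nrg genes, Erbb4 and the other Lrig and Cbl genes. The members, lists and tests were chosen with earlier results of these data known. The time between tamoxifen and collection is not settled by the sources used here. Promoters are RefSeq's.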

Additional observations from a re-analysis of the deposited data

Results flagged for a closer look

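In each fraction, the 9 genes and the 68 tested genes of the pathway lists were searched for a library that lay apart from the other 7, by its gap divided by the range on the log2 scale, against Dixon's 95% limit. Of 154 sets of 8 values, 10 passed, beside about 7.7 that chance gives.

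Among the members, Ereg in the tdTom+ library of mouse 2 lay below the others (0.122 CPM from 2 counts against 0.317 to 0.508, gap share 0.625). Egfr in the tdTom- library of mouse 5 lay below the others (19.2 CPM against 22.9 to 26.0, gap share 0.584). Of the tdTom+ library of mouse 7, Fos (983 CPM against 425 to 617, gap share 0.555), Dusp5 (54.6 against 19.3 to 30.2, gap share 0.571) and Akt2 (44.3 against 35.0 to 38.0, gap share 0.656) lay above the others. In the tdTom- library of the same mouse, Ccnd1 lay above the others (119 CPM against 28.9 to 48.8, gap share 0.631) and Errfi1 below them (24.0 against 42.2 to 60.3, gap share 0.613). In tdTom-, Dusp5 was low in mouse 1 (gap share 0.738), Etv5 was low in mouse 5 (gap share 0.54) and Pik3cb was high in mouse 6 (gap share 0.594).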

How the results depend on the processing

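None of the 9 genes reversed in any alternative. All but Areg kept their call in every alternative that tested them at an adjusted p under 0.01, except that Tgfa, Hbegf, Erbb2 and Erbb3 fell out where a log2 fold change of at least 1 was also required. Over the alternatives the log2 fold change ran from 4.64 to 4.95 for Egf, 2.54 to 2.73 for Btc, 1.18 to 1.38 for Egfr, 0.66 to 0.86 for Tgfa, 0.30 to 0.50 for Areg, -0.93 to -0.73 for Hbegf, -2.58 to -2.35 for Ereg, -0.88 to -0.68 for Erbb2 and -0.83 to -0.63 for Erbb3. Areg lost its call in 8 of 18 alternatives, and the cause was not tested. Without the replicate block 4 genes were higher and 4 lower, and Areg was the call lost. That fit called 3473 genes higher and 4133 lower in all, and 22 higher and 16 lower in the pathway lists. Leaving out mouse 7 without the block, an alternative chosen after seeing the data, also gave 4 and 4. Leaving out each mouse gave 4 to 5 members higher and 4 lower, and 7 to 8 differing neighbours in either fraction.

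Requiring a log2 fold change of at least 1 left 3 members higher and 1 lower, 8 and 2 genes of the pathway lists (27 and 17 before), and 1740 and 1758 of all genes (3956 and 4600 before), because the requirement takes out smaller changes. Scaling to total counts without the 10 most counted genes moved the median of all genes by 0.14 (log2) and gave 5012 higher and 3615 lower, with the members at 5 and 4. In the pathway lists the balance moved with the scaling, from 20 higher and 20 lower with total counts to 35 and 14 without the 10 most counted genes. With the transcript length, also chosen after seeing the data, all 8 neighbouring pairs differed in both fractions. Egf in tdTom- and Ereg in tdTom+ rest on 12 or fewer counts a library, which limits the precision of their folds.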
